A study of Nothobranchius furzeri with 15 samples.

Results

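Liver RNA of male turquoise killifish (Nothobranchius furzeri, an annual fish with a very short life) was compared between 5 libraries labelled rotenone 150 pM and 5 labelled rotenone 15 pM. These are 10 of the 15 libraries of the series, chosen by the perturbation label alone. The other 5 carry the label DMSO, the usual solvent of rotenone; they are shown as a level only and entered the scaling factors but not the fit. All fish belonged to GRZ, a highly inbred strain kept in laboratories, and were 9 weeks old. Libraries are called here by the number in their titles, which is 8 to 12 for 150 pM and 1 to 5 for 15 pM and for DMSO. The labels state neither the route and length of the treatment nor whether fish given rotenone also received DMSO. Nothing says that each library came from its own fish, so p-values speak to the spread among the libraries, part of which may be technical.

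Rotenone blocks the passage of electrons through complex I, the enzyme by which the mitochondrial respiratory chain takes electrons from NADH and hands them to ubiquinone. Blocking it slows the regeneration of NAD+ and the pumping of protons that drives ATP synthesis, and it can raise the release of superoxide. Liver cells rely on this chain for the costly synthesis of glucose, lipids and plasma proteins. The comparison asked which liver transcripts separated the doses, which differ 10-fold.

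The files list genes by identifiers of the form Nfu_g and do not pair them with names. Of 26739 identifiers, 0 were found in the reference gene table used here, so no gene is given a name or a role. For the same reason the label liver could not be checked against liver markers, and markers of other cell types, complex I subunits and other gene lists could not be examined. Genes are therefore described by level, size of change, length and place in the deposited table, and 4 identifiers are printed.

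Total counts ran from 22185038 to 31465939 over the 10 libraries, and a count of 0 allows up to 0.101 to 0.125 CPM (counts scaled by library size and TMM factors), for counting error only. At 150 pM, libraries 8 and 10 gave 21.2% and 19.1% of their counts to their 10 most abundant genes, and the other 3 gave 25.3% to 29.8%. Among the 15 pM libraries this share was 27.0% to 32.7%. In DMSO it was 28.3 ± 1.12% (SD, n = 5), which was not tested. The difference between the doses, -5.10 percentage points, did not pass an exact permutation test (two-sided p = 0.0635, adjusted over 3 such tests 0.0952). Before adjustment it passed without 150 pM library 11 (exact p = 0.0159). It also passed without 150 pM library 12 or 15 pM library 1 (exact p = 0.0476 for either, not adjusted). The other single omissions gave exact p from 0.0714 to 0.135. Without libraries 8 and 10 the difference was -2.10 points (exact p = 0.25). Library 4 of 15 pM stood apart from the other 9. Its quality weight in limma, which falls as a library scatters around its group, was 0.155, and the others had weights from 0.844 to 1.68.

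More genes were called higher than lower at 150 pM relative to 15 pM. Of 15214 genes tested, 1052 (6.91%) differed between the doses in edgeR's quasi-likelihood test at an adjusted p under 0.05. Of these, 847 (5.57% of the genes tested) were higher at 150 pM and 205 (1.35%) were lower. For the higher genes the log2 fold change had a median of 1.21, and the middle 50% of them lay between 0.86 and 1.86. The lower genes had a median of -0.84, and their middle 50% lay between -1.25 and -0.62. The median over all genes tested was -0.026. Most of the lower genes changed little: 130 of them differed by less than 2-fold and 75 by 2-fold or more. Among the higher genes 536 were at least 2-fold higher. These are amounts of RNA in whole tissue, in which fewer cells of a type and less RNA per cell cannot be told apart.

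**Figure D1:**
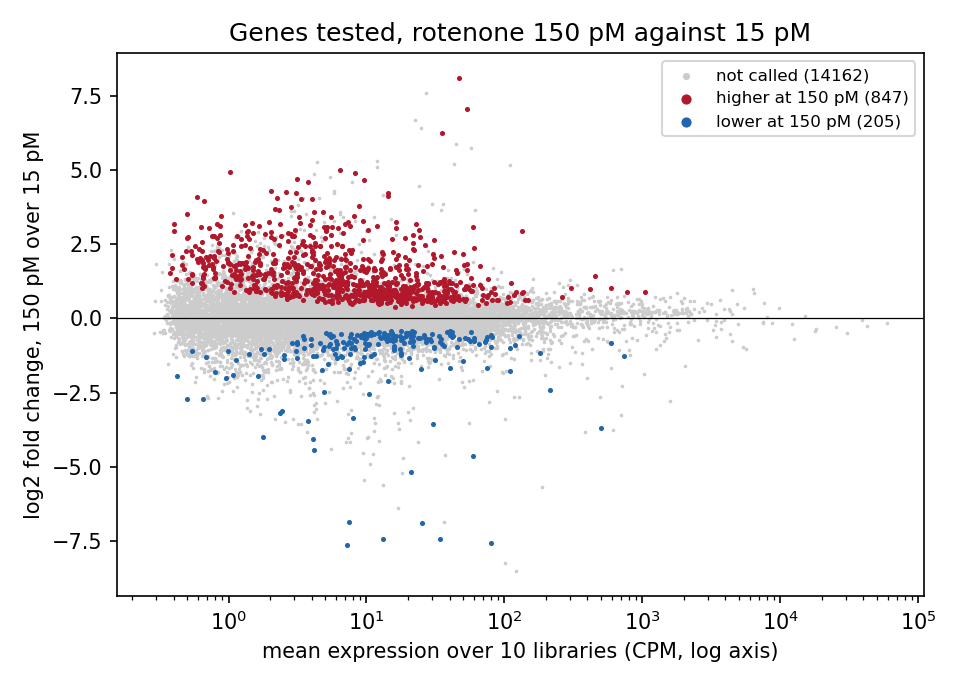
Each point is 1 of 15214 genes, with its mean CPM over the 10 libraries on a log axis and its log2 fold change of 150 pM over 15 pM on the vertical axis. The 847 genes called higher (red) outnumber the 205 called lower (blue). Above 1000 CPM lie 149 of the genes tested, of which 1 was called higher and 0 lower.

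The number of calls moved with single libraries. Leaving out 150 pM library 8, 9, 10, 11 or 12 gave 577, 805, 637, 656 or 692 calls. Leaving out 15 pM library 1, 2, 3, 4 or 5 gave 564, 587, 878, 1469 or 729. Fewer libraries also give less power, so a fall in calls cannot be assigned to the library left out. The omission of 150 pM library 8, 9, 10, 11 or 12 left 528, 692, 542, 583 or 603 higher genes. That of 15 pM library 1, 2, 3, 4 or 5 gave 478, 499, 713, 1102 or 585. For the lower genes, the omission of 150 pM library 8, 9, 10, 11 or 12 left 49, 113, 95, 73 or 89. For 15 pM library 1, 2, 3, 4 or 5 it gave 86, 88, 165, 367 or 144. Without libraries 8 and 10 together, 252 genes were higher and 27 lower (1.83% of the genes tested in all). With 15 pM library 4 left out as well, 615 were higher and 104 lower (4.73%). With library totals in place of TMM, 743 were higher and 73 lower (91.1% higher, against 80.5%). Adding the DMSO libraries to the fit, which then estimates the spread from 3 groups, gave 1401 higher and 760 lower genes (64.8% higher), and DESeq2 gave 1440 and 907 (61.4% higher). In 430 of the 847 higher genes and 40 of the 205 lower ones (3.09% of the genes tested), the call passed in each of the 10 fits that left out 1 library. Among them, 233 higher and 11 lower genes also passed without libraries 8 and 10 and without these and library 4. Their median log2 fold changes were 1.78 and -5.17. The 11 lower genes include 5 that lie close together in the deposited table and 2 in adjacent rows, described below. These 5 and 2 had log2 fold changes of -4.62 or lower, whereas the median over all 205 lower genes was -0.84.

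The spread of single genes differed between the doses. The median over genes of the SD of log2 CPM was 0.303 at 150 pM and 0.431 at 15 pM (5 libraries each). Without library 4 the 15 pM value was 0.292. In 5065 of the 15214 genes the SD was larger at 150 pM. No overlap in CPM between the doses was seen in 10.7% of the genes tested, 7.41% with all 150 pM libraries above and 3.31% with all of them below. Of the called genes, 777 higher and 168 lower ones were among these; the calls rest on the same values.

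As a body, the called genes held a small share of each library's counts. The 847 higher genes took 2.54%, 2.05%, 2.63%, 1.76% and 1.91% of the counts in 150 pM libraries 8 to 12, against 0.945%, 0.834%, 1.09%, 1.01% and 1.06% in 15 pM libraries 1 to 5. Every 150 pM library lay above every 15 pM library, which the choice of genes by this contrast nearly fixes. The 205 lower genes took 0.347% to 0.422% at 150 pM, against 0.725% to 1.09% at 15 pM. Their highest share was in library 4.

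DMSO libraries entered the scaling factors but not the fit that called these genes, and their levels mostly fell between the doses. Relative to the mean of 15 pM, the median log2 CPM of the higher genes was 1.11 to 1.35 in the 150 pM libraries. In the DMSO libraries 1 to 5 it was 0.87, 0.61, 0.40, 0.76 and 0.77. The mean of DMSO lay between the means of the doses in 794 of the 847 higher genes (93.7%), against 46.5% of all genes tested. Genes picked for a large gap between a pair of groups tend to have any other group in between. This share therefore cannot show an ordering by dose. In 537 of the higher genes DMSO was nearer to 150 pM, and in 310 (36.6%) nearer to 15 pM, against 54.4% nearer to 15 pM among all genes tested. The 5 DMSO libraries did not overlap with the 15 pM libraries in 292 of the higher genes (34.5%, against 6.01% of all genes tested). They did not overlap with the 150 pM libraries in 268 (31.6%, against 1673 of all 15214 genes tested). In 60 of the higher genes, and in 71 of all genes tested, they overlapped with neither and lay between both. Lying between both requires that the doses themselves do not overlap. The choice of genes by a clear gap between the doses also raises the shares without overlap, so they cannot show whether a dose differed from DMSO.

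For the 205 lower genes the mean of DMSO lay between the doses in 166 (81.0%, against 46.5% of all genes tested) and above 15 pM in 34 (16.6%), where 30.6% of all genes tested had DMSO beyond 15 pM. DMSO was nearer to 15 pM in 126 of them (61.5%, against 54.4% of all genes tested) and nearer to 150 pM in 79. Relative to the mean of 15 pM, the median log2 CPM of the lower genes was -0.86 to -0.77 in the 150 pM libraries and -0.31 to -0.24 in the DMSO libraries. The differences from DMSO were not tested.

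**Figure D2:**
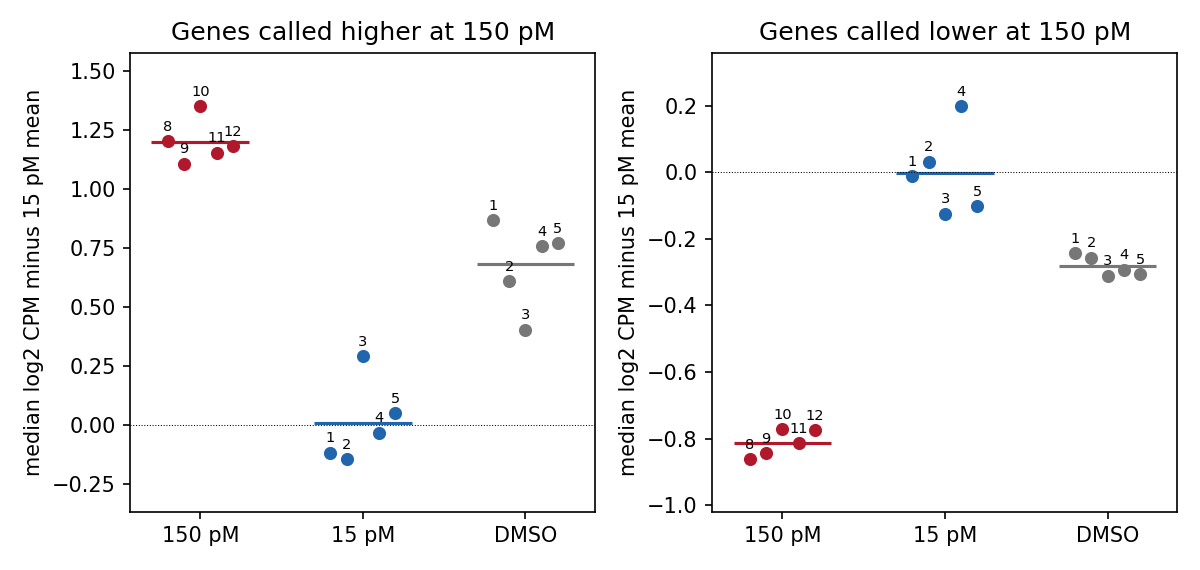
Each point is 1 library, numbered by its title, and gives the median over the called genes of log2 CPM minus the 15 pM mean; bars are group means of these medians. In the higher genes (left, 847) the DMSO libraries lie at 0.40 to 0.87, between the 15 pM libraries and the 150 pM libraries; in the lower genes (right, 205) they lie at -0.31 to -0.24.

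The largest rises by the fit came from a pair of libraries. The 4 genes with the largest log2 fold changes among those called higher (8.10, 7.06, 6.25 and 4.99) were high in libraries 8 and 10 alone. The first stood at 224 and 240 CPM there, at 0.244 to 0.476 CPM in libraries 9, 11 and 12, and at no more than 0.441 CPM in any 15 pM library. Without libraries 8 and 10 all 4 missed the threshold (edgeR adjusted p from 0.371 to 0.966).

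A larger set of strong rises was shared by all 5 libraries of 150 pM. Of 56 genes called at least 8-fold higher, 47 had all 150 pM libraries above all 15 pM libraries, with log2 fold changes from 3.04 to 4.92. Their group means had a median of 6.99 CPM at 150 pM and 0.537 CPM at 15 pM. In DMSO this median was 2.53 CPM. Of these 47 genes, 42 passed in all 10 fits that left out 1 library, 35 without libraries 8 and 10, and 41 without these and library 4. The choice of called genes with large changes and no overlap in the same libraries favours such passes. Of all 847 higher genes, 777 (91.7%) had no overlap, and 430 passed in all 10 of those fits. In the 9 genes whose groups overlapped, libraries 8 and 10 were the highest of their group in 8, and 0 passed in all 10 of those fits.

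These strong rises ranked the libraries in a common way. Among the 180 genes called at least 4-fold higher, library 3 was the highest of the 15 pM libraries in 125 (69.4%), against 15.1% of all genes tested. Of the DMSO libraries, library 1 was the highest in 107 (59.4%, against 28.9% of all genes) and library 3 the lowest in 122 (67.8%, against 23.8%). Relative to the 15 pM mean, the median log2 CPM of these 180 genes was 0.92 in 15 pM library 3 and between -0.38 and 0.031 in the other 4. It was 2.35 to 2.90 in the 150 pM libraries. In the DMSO libraries it ran from 0.81 in library 3 to 2.05 in library 1, so DMSO library 3 was about as high as 15 pM library 3.

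Single genes were picked among those called in every fit leaving out 1 library, with an average of 5 CPM or more and groups that did not overlap; 277 higher and 35 lower genes met these terms. Nfu_g_1_002217 rose most among them. It stood at 17.2, 12.5, 17.4, 14.2 and 18.4 CPM in 150 pM libraries 8 to 12, against 0.193, 0.223, 1.20, 0.518 and 0.548 CPM in 15 pM libraries 1 to 5. In counts, the lowest 150 pM library held 300 and the highest 15 pM library 30. On the log2 scale it was higher by 4.89 (SE 0.44; adjusted p = 0.000446, edgeR). On the scales of log2(RPKM + 0.1) and log2(RPKM + 1), which shrink changes of low genes, it was 3.76 and 1.55. DMSO libraries 1 to 5 stood at 10.6, 2.20, 1.35, 3.88 and 4.63 CPM, all below the lowest 150 pM library and above the highest 15 pM library. Library 3 was again the highest at 15 pM and the lowest in DMSO.

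Nfu_g_1_004613 had the highest mean CPM of the other higher genes under the same terms, on a scale that is not corrected for length. It stood at 749, 768, 682, 530 and 591 CPM in 150 pM libraries 8 to 12, against 224, 351, 241, 137 and 286 CPM in 15 pM libraries 1 to 5. Its averages were 664 ± 102 CPM in the 150 pM group and 248 ± 79.0 CPM in the 15 pM group (SD, n = 5 each). On the log2 scale the rise was 1.42 (SE 0.24; adjusted p = 0.00775, edgeR). Without libraries 8 and 10 it was 1.34 and missed the threshold (edgeR adjusted p = 0.0645). DMSO stood at 306 ± 49.5 CPM (SD, n = 5). Its DMSO libraries, from 219 to 339 CPM, overlapped with those of 15 pM and all lay below those of 150 pM.

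Nfu_g_1_002677 had the highest mean CPM of the lower genes under these terms, leaving out the one with the largest fall. It stood at 68.7, 68.3, 44.5, 47.3 and 39.7 CPM in 150 pM libraries 8 to 12, against 108, 111, 96.1, 92.9 and 119 CPM in 15 pM libraries 1 to 5. Its fold change on the log2 scale was -0.97 (SE 0.19; adjusted p = 0.0126, edgeR), and -1.03 without libraries 8 and 10, where it missed the threshold (edgeR adjusted p = 0.0566). DMSO libraries ranged from 71.8 to 118 CPM; all lay above those of 150 pM, and they overlapped with those of 15 pM.

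Nfu_g_1_007560 fell most. Its counts at 150 pM were 2, 0, 0, 6 and 1 in libraries 8 to 12, against 701, 179, 154, 125 and 753 at 15 pM in libraries 1 to 5. It averaged 0.0677 ± 0.091 CPM in the 150 pM group and 14.4 ± 11.8 CPM in the 15 pM group (SD, n = 5 each), and no 150 pM library came near the lowest 15 pM library at 4.63 CPM. Its fold change on the log2 scale was -7.62 (SE 0.91; adjusted p = 0.00178, edgeR). At counts this low its size depends on the prior count of the fit, and it was -3.26 on the scale of log2(RPKM + 1), the smallest of 24 alternatives. DMSO libraries 1 to 5 held 6, 2, 4, 28 and 2 counts, and all of them lay below the 15 pM libraries in CPM.

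**Figure D3:**
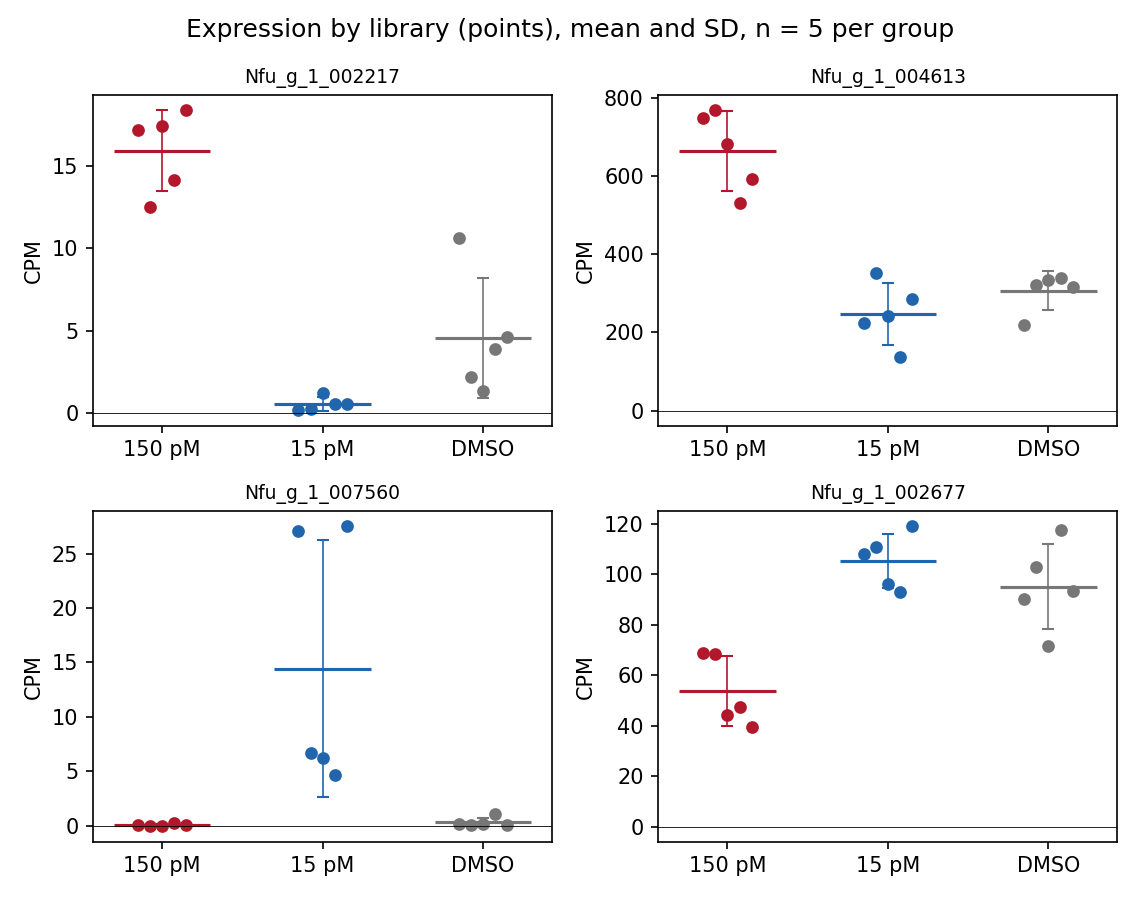
CPM of 4 genes in each library (points), with the group mean and SD (n = 5 per group). In Nfu_g_1_002217 and Nfu_g_1_004613 the 150 pM libraries all lie above those of 15 pM; in Nfu_g_1_007560 and Nfu_g_1_002677 they all lie below.

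Among the genes called lower, most of the deepest falls stood close together in the deposited table. Some genes that missed the threshold fell further by the fit. Of 11 genes called at least 16-fold lower at 150 pM, 5 lay within 9 successive rows, among them Nfu_g_1_007560, and 2 more in a pair of adjacent rows elsewhere. Successive rows may follow gene order along the genome, but neither labels nor files say so. All 7 had every 15 pM library above every 150 pM library and above every DMSO library. Their calls held without libraries 8 and 10 and without these and library 4 (largest edgeR adjusted p 0.0349 and 0.0319). They were picked for deep falls in the same libraries, which favours both. Of all genes tested, 3.31% had all 150 pM libraries below all 15 pM libraries. The 5 genes had log2 fold changes from -7.62 to -4.62. Summed over them, 150 pM libraries 8 to 12 stood at 9.04, 6.81, 1.65, 10.8 and 5.70 CPM, against 412, 362, 262, 263 and 411 CPM in 15 pM libraries 1 to 5. DMSO libraries 1 to 5 stood at 4.37, 6.34, 8.41, 33.1 and 4.87 CPM, so for these 5 genes 15 pM was the group that stood apart. The rest of the 11 genes differed in this. A pair of them, with doses that overlapped, averaged 19.6 and 17.3 CPM in DMSO, above 7.72 and 7.91 CPM at 15 pM. The remaining pair averaged 0.368 and 2.59 CPM in DMSO, below 3.34 and 50.5 CPM at 15 pM.

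The other 2 tested genes within these 9 rows were not called, with log2 fold changes of 0.41 and 0.67. The pair elsewhere summed to 0.101 to 0.806 CPM at 150 pM, against 261, 17.5, 22.6, 96.2 and 72.7 CPM in 15 pM libraries 1 to 5, and DMSO was at 0.550 to 1.08 CPM. Here the 15 pM libraries spread widely but still lay far above all others. The library preparation does not mark strand, and the sources used do not say how reads over overlapping genes were counted. Whether neighbouring rows share reads is therefore not known.

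Over all calls, 19 of the 205 lower genes (9.27%) had another lower gene in an adjacent row, and 1.82% of all genes tested had one. For the higher genes 86 of 847 (10.2%) had a higher gene in an adjacent row, against 6.80% of all genes tested. No test was made of these shares.

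**Figure D4:**
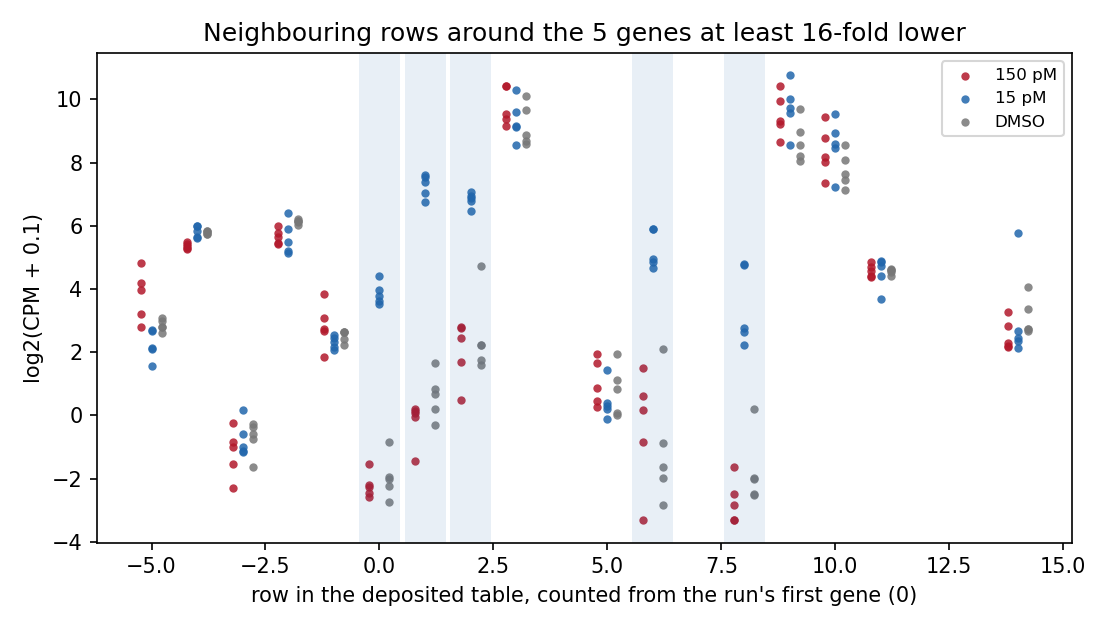
Each column of points is 1 tested gene at its row in the deposited table, counted from the first of the 5 genes; the vertical axis is log2(CPM + 0.1) and points are libraries of 150 pM, 15 pM and DMSO. In the 5 shaded genes, called lower at 150 pM, all 15 pM libraries lie above the others, while genes in the rows between them overlap.

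Calls were spread over low and middle levels and were rare among the genes with the most reads. Between 1 and 10 CPM, 427 of 6905 genes were higher (6.18%) and 77 lower (1.12%). Between 10 and 100 CPM, 327 of 5872 were higher (5.57%) and 111 lower (1.89%). Between 100 and 1000 CPM these numbers were 17 and 9 of 750. The 149 genes above 1000 CPM took 58.7% of the counts, and edgeR called 1 of them higher and 0 lower. Of these 149, limma voom called 1 higher and 0 lower, voom with quality weights 2 and 3, and DESeq2 3 and 7. Over all 15214 genes limma voom called 831 higher and 190 lower, and voom with quality weights 1208 and 499. DESeq2 called 1440 and 907 of 15034. At an unadjusted p under 0.05 in edgeR, 6 of the 149 were higher and 7 lower. The matching count over all genes is not given here. In 57.7% of these 149 genes, and in 53.5% of all genes tested, the 95% interval of the fold change lay within 2-fold in either direction. For the other genes the interval reached beyond 2-fold.

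Long genes made up much of the higher set. The top length quartile of the genes tested, from 4918 bases up, held 402 of the 847 higher genes (10.6% of that quartile) and 20 of the 205 lower ones (0.526%). The bottom quartile, up to 1410 bases, held 91 higher (2.39%) and 61 lower genes (1.60%). Median length was 4533 bases in the higher genes, 2023 in the lower ones and 2785 in those not called. Without library 4 and libraries 8 and 10, the top quartile held 282 of 615 higher and 15 of 104 lower genes. Once the length trend of each library had been taken out, it held 147 of 560 higher and 82 of 178 lower genes, but taking it out shifts these lengths by construction.

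This difference ran through whole libraries. For each library, log2 CPM minus the mean of that gene over the 10 libraries was set against gene length. The Spearman correlation across genes was 0.153, 0.0373, 0.151, 0.138 and 0.0720 in 150 pM libraries 8 to 12, against -0.156, -0.187, -0.0892, -0.0778 and -0.0106 in 15 pM libraries 1 to 5. All 150 pM values were above 0 and all 15 pM values below it. Deviations are taken from the mean of these same 10 libraries, so opposite signs are nearly fixed once the doses separate. The DMSO libraries, outside that mean, ran from -0.0685 to 0.0814. The means of the doses differed by 0.21 (exact permutation test over libraries, two-sided, p = 0.00794, adjusted over 3 tests 0.0238). No smaller p can come from 5 libraries against 5, so the raw value is at its limit. Without library 4 and libraries 8 and 10 the difference was 0.21 and the exact p 0.0571. Fewer libraries allow fewer splits, so this p cannot be set against the value for all 10 libraries. Genes are not independent replicates, and the pattern was known from an earlier analysis of these libraries. The part of this length difference in the calls for single genes was not tested.

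**Figure D5:**
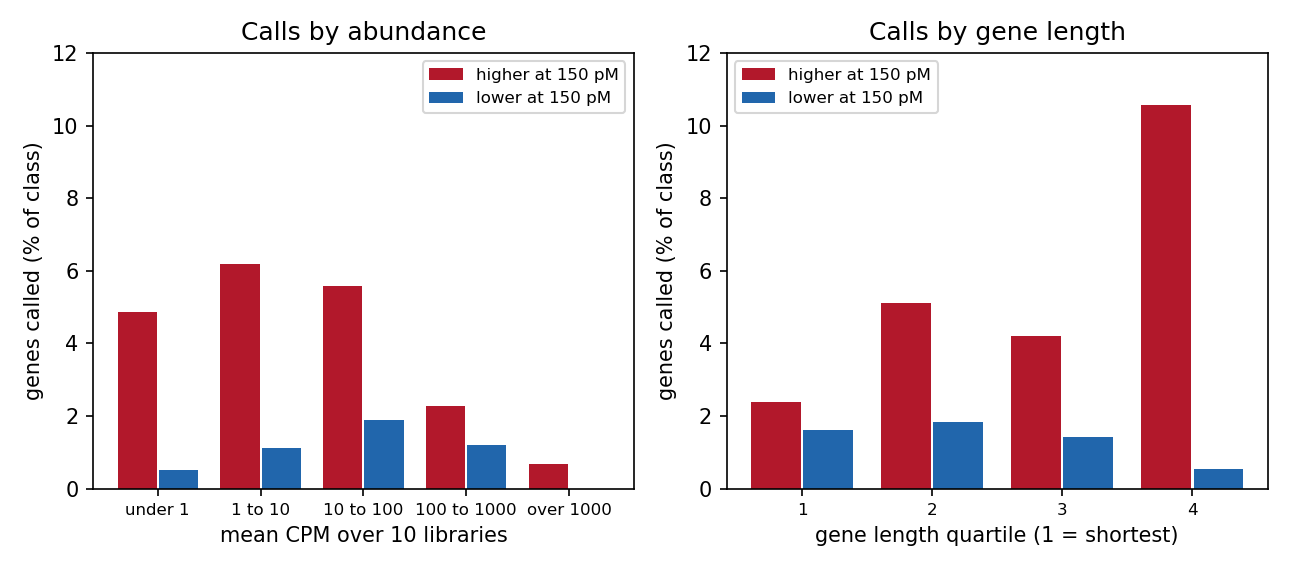
Percent of genes in each class called higher (red) or lower (blue) at 150 pM, by mean CPM over the 10 libraries (left) and by gene length quartile (right). The share called higher is 10.6% in the top length quartile and 2.39% in the bottom one, and above 1000 CPM 1 gene is called higher and 0 lower.

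Genes at 1 CPM or more numbered 13518 ± 492 in the 150 pM libraries and 13199 ± 202 in the 15 pM libraries (SD, n = 5 each). In the DMSO libraries there were 13521 ± 245 (SD, n = 5), which was not tested. The difference of 319 genes between the doses was within the spread between libraries (exact permutation test, two-sided p = 0.23, adjusted over 3 tests 0.23). Without 150 pM library 9, which held 12783 such genes, it was 503 (exact p = 0.00794), and without libraries 8 and 10 it was 73.1 (exact p = 0.75). No gene with at least 1 CPM in all libraries of one dose had 3 counts or fewer in all libraries of the other. By these limits 0 genes were fully on at one dose and off at the other. Nfu_g_1_007560 came close, with at most 6 counts in a 150 pM library and at least 125 in every 15 pM library.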

How the data were processed

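Total RNA went into the TruSeq RNA kit v2, per the labels' protocols; this kit keeps no strand information. The tools featureCounts 1.4.6-p4, STAR 2.4.1d and CASAVA 1.8.2 appear, with no role or order, in the submitters' processing notes; for the genome build and annotation nothing is given in the sources used here. Whole-number read counts per gene, not normalized, were deposited by the authors. They also deposited RPKM values; over 105783 values these gave 1 length per gene within 0.2% for 100% when library totals were taken in turn down the rows and for 8.73% with each library's own total. The deposited RPKM therefore served only to recover gene lengths.

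Counts of the 10 rotenone libraries were tested with edgeR 4.0.16 in R 4.3.3 (quasi-likelihood F-test, two-sided, no covariate, Benjamini-Hochberg adjustment over all genes tested, threshold 0.05). The filterByExpr function (minimum count 10) kept 15214 of 26739 genes, with 99.8% of the counts. TMM factors were computed over all 15 libraries, and log2 CPM used a prior count of 2. Alternatives used limma 3.58.1 and DESeq2 1.42.0; fits that left out libraries kept the genes and factors. The scripts were tested on simulated data. There the comparison recovered 0% of 76 genes changed 1.5-fold, 16.7% of 66 changed 2-fold and 69.0% of 58 changed 4-fold. Of 52 calls there, 1 was wrong. How closely the simulated spread matched these libraries is not given here, so the rates may not carry over. Genes not called may still have changed by such amounts. Library measures were compared by exact permutation tests. Chi-square per degree of freedom between libraries of a group was 49.2 to 791 over 20 pairs, far above sampling noise, so none was counted as a copy. With no names for the identifiers, the rule for named genes took the largest fold change and then the highest mean CPM in each direction, among called genes that passed in each of the 10 single omissions, had a mean of at least 5 CPM and groups that did not overlap. Other genes are described without identifiers and were chosen after their values were seen. The comparison, rules and alternatives were chosen with earlier results of these data known.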

Additional observations from a re-analysis of the deposited data

Results flagged for a closer look

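Each set of 5 libraries was searched for a value far from the other 4, over 21 sets (4 named genes and 3 library measures in 3 groups). Chance flags about 1 in 20 such sets, and 3 were found. At 15 pM, library 2 had 12853 genes at 1 CPM or more, below 13224 to 13365 in the others. In DMSO, library 1 held 219 CPM of Nfu_g_1_004613, below 316 to 339 CPM in the others. Also in DMSO, library 4 held 1.04 CPM of Nfu_g_1_007560, above 0.0733 to 0.154 CPM in the others, and below the 4.63 CPM of the lowest 15 pM library. These values were not weighed further.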

How the results depend on the processing

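Against 1052 calls (847 higher and 205 lower at 150 pM), leaving out 1 library gave 564 to 1469 calls, 478 to 1102 of them higher and 49 to 367 lower. Without 150 pM libraries 8 and 10 there were 279, 252 higher and 27 lower, and without these and 15 pM library 4 the lower genes numbered 104. With all 15 libraries in the fit the numbers were 2161, 1401 and 760, with DESeq2 2347, 1440 and 907, and with voom and quality weights 1707 calls, 499 of them lower. No filter gave 699, 113 of them lower. Lower genes numbered 73 with library totals, and 81 and 82 with limma on recomputed log2 RPKM plus 0.1 or 1. Higher genes numbered 560 with the length trend removed. The causes were not tested. Of the 4 named genes, none changed sign in 24 alternatives, and 2 missed the threshold, each only without libraries 8 and 10. The 24 include the 10 single omissions, which these genes had to pass to be chosen, so those fits say nothing new about them. Leaving out 1 library moved the difference in the top-10 share between -6.39 and -3.71 percentage points and that in genes detected between 159 and 503. The length correlation difference was 0.21 without libraries 4, 8 and 10, with an exact p of 0.0571 from fewer possible splits. No paired analysis was possible because the 150 pM and 15 pM libraries share no replicate numbers. Fish and treatment batches are not labelled, so a batch and the dose cannot be told apart. Most genes below 1 CPM had intervals that reached beyond 2-fold.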
